A study of Mus musculus with 16 samples.

Results

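Fatty acid synthesis and desaturation genes were described in glomerular extracts of wild-type mice and of mice without oestrogen receptor alpha, before and after the start of an immune glomerulonephritis. The set was given as 10 gene symbols, and a gene counted as measured where a probeset of the array was annotated to that symbol and no other. This held for 8 of the 10, among 30142 genes measured in the same way: Scd1, Elovl6, Fasn, Acaca, Acacb, Thrsp, Acly and Mogat1. Scd2 and Srebf1 lie only on probesets that also carry the symbol of a microRNA and were not measured here. Among these 8 only Scd1 had more than 1 such probeset, and its brighter one, by the mean of the 16 arrays, was used.

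RNA came from the glomerular extracts of 16 female mice, each hybridised to 1 Affymetrix array, and the study asked how signalling through this receptor bears on lipid metabolism and on glomerulonephritis. The wild-type mice were C57Bl/6, and the knockout mice were B6.ERαKO, which lack oestrogen receptor alpha and are given on the same C57Bl/6 background. Within each genotype the groups were untreated, or 18 hours, 6 days or 2 weeks after an intraperitoneal injection of sheep nephrotoxic serum, an antiserum against the glomerular basement membrane. Each of these 8 groups holds 2 mice. The serum dose was 8 µl per g in every treated group. The labels give no age, and the deletion is not described as limited to a cell type, so its site of action cannot be read from these groups.

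New fatty acids are built in the cytosol. Acly, ATP citrate lyase, makes acetyl-CoA from citrate, the acetyl-CoA carboxylases turn it into malonyl-CoA, and Fasn, fatty acid synthase, joins these units into palmitate. Elovl6 then lengthens palmitate to stearate, and the stearoyl-CoA desaturases Scd1 and Scd2 place a double bond to give oleate. Acaca is the carboxylase of the cytosol that feeds synthesis, whereas Acacb sits at the mitochondrial surface, where its malonyl-CoA holds back fatty acid oxidation. Thrsp, also called Spot 14, is a small protein that follows lipogenic state, Srebf1 encodes the transcription factor SREBP-1, and Mogat1 is an acyltransferase that makes diacylglycerol from monoacylglycerol. In kidney, the tubules burn fatty acids for most of their energy, and the expression of many lipid and transport genes in the mouse tubule differs between the sexes.

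The start-site windows of 4 of these genes are shown because the genes differed in how they behaved: Elovl6 was lower and Mogat1 higher in most arrays labelled knockout, while Fasn and Acacb differed mainly with time after serum. Each is the 250 bases just before an annotated transcription start, read on the gene's own strand from RefSeq on GRCm38.p6. Capitals mark a CCAAT box (CCAAT), the core oestrogen receptor site GGTCA and, where present, the E-box CACGTG and the sterol regulatory element core TCACNCCAC. The palindromic oestrogen response element, GGTCA followed after 3 bases by its complement TGACC, was searched too, and all motifs were searched on both strands.
Elovl6, chr3:129532136-129532385, plus strand: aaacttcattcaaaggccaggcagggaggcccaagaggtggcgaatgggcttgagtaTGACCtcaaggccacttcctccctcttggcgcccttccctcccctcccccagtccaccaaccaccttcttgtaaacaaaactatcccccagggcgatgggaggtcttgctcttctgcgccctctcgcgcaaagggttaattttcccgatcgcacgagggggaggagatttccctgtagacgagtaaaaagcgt
Mogat1, chr1:78510810-78511059, plus strand: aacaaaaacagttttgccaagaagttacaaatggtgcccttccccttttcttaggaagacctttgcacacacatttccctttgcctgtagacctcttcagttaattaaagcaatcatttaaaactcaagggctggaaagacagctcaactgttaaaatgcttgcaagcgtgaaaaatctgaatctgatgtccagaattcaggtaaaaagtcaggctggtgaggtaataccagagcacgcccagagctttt
Fasn, chr11:120824548-120824797, minus strand: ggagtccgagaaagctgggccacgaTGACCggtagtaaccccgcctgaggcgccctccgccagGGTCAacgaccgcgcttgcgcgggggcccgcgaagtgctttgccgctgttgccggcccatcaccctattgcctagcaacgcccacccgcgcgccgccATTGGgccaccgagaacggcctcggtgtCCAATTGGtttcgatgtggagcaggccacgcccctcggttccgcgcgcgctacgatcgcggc
Acacb, chr5:114165268-114165517, plus strand: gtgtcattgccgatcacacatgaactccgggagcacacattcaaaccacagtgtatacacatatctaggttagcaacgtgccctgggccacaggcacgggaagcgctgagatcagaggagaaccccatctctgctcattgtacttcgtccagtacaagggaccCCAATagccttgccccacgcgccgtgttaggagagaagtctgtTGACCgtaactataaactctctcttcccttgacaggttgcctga
The Elovl6 window, just upstream of a gene that runs from 129532386 to 129638495 on chromosome 3, held 1 GGTCA site, at -193 from the start. The Mogat1 window held none of the motifs searched. The Fasn window also lies inside the annotated gene, which runs from 120805958 to 120825166 on chromosome 11. In it a CCAAT box stood at -90, and a pair at -62 and -59 overlapped on opposite strands, with GGTCA sites at -225 and -187. The Acacb window, likewise inside its annotated gene (114146321 to 114250761 on chromosome 5) ahead of an internal start, had a CCAAT box at -87 and a GGTCA site at -44. Of the windows not shown, that of Thrsp had CCAAT boxes at -79 and -52, that of Acly a GGTCA site at -39, and that of Acaca no match. The Acaca window also lies inside its annotated gene, which runs from 84129635 to 84401651 on chromosome 11. The windows of Srebf1 held CCAAT boxes at -30 and -166 and a GGTCA site at -182. No window was available for Scd1 or Scd2. None of the windows of these 7 genes or of Srebf1 held an E-box, the sterol core or the palindrome. For scale, a CCAAT box occurred in 33.8% and a GGTCA site in 35.2% of 32851 windows of this length, an E-box in 6.02%, the sterol core in 1.05% and the palindrome in 0.0639%. These matches describe letters only, and a motif that is missing from a window may lie elsewhere.

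Values are the deposited log2 units. They run up to 19.93, so they carry a transformation that the sources used here do not state, and differences are therefore given in these units and not as folds of RNA. With 2 mice per group the number of arrays limits the precision, and levels of the 8 genes were not set against each other. The Esr1 probeset, which reads the targeted gene, lay between 6.35 and 7.53 on arrays labelled wild type and between 7.11 and 7.64 on arrays labelled knockout. It was thus not lower in the knockout, and as the stretch of the gene that its probes read is not given, it does not show the deletion. Without the 18-hour replicate 2 arrays, Esr1 lay between 6.35 and 7.04 in wild type and between 7.29 and 7.64 in knockout. The 18-hour replicate 2 arrays read 7.53 where labelled wild type and 7.11 where labelled knockout. At 18 hours the replicate 2 arrays of both genotypes went against their labels: Abcc3, an organic anion exporter and 1 of the female-biased kidney genes listed here, was 6.25 on the array labelled wild type and 12.93 on the one labelled knockout. Elsewhere it was at least 8.52 in wild type and at most 6.69 in knockout. All arrays were kept under their labels. Calls are given over all 16 arrays and, beside them, over 14 arrays without both 18-hour replicate 2 arrays or over 12 arrays without any array of 18 hours. The replicate 2 arrays were doubted on genes that vary together with Scd1 and Elovl6, and both smaller sets leave out these arrays, which run against the genotype pattern of Scd1, Elovl6 and Mogat1. Their values are therefore not independent of that doubt. The comparisons fitted on the 4 arrays of 1 time, untreated, 6 days or 2 weeks, hold no 18-hour array. Markers of proximal tubule were high on every array (mean of 16 genes 12.92 to 16.16), and podocyte markers were present (mean of 10 genes 9.06 to 11.09), so the extracts held tubule as well as glomerulus. In such bulk samples, fewer cells of a type and less RNA per cell cannot be told apart.

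**Figure D1:**
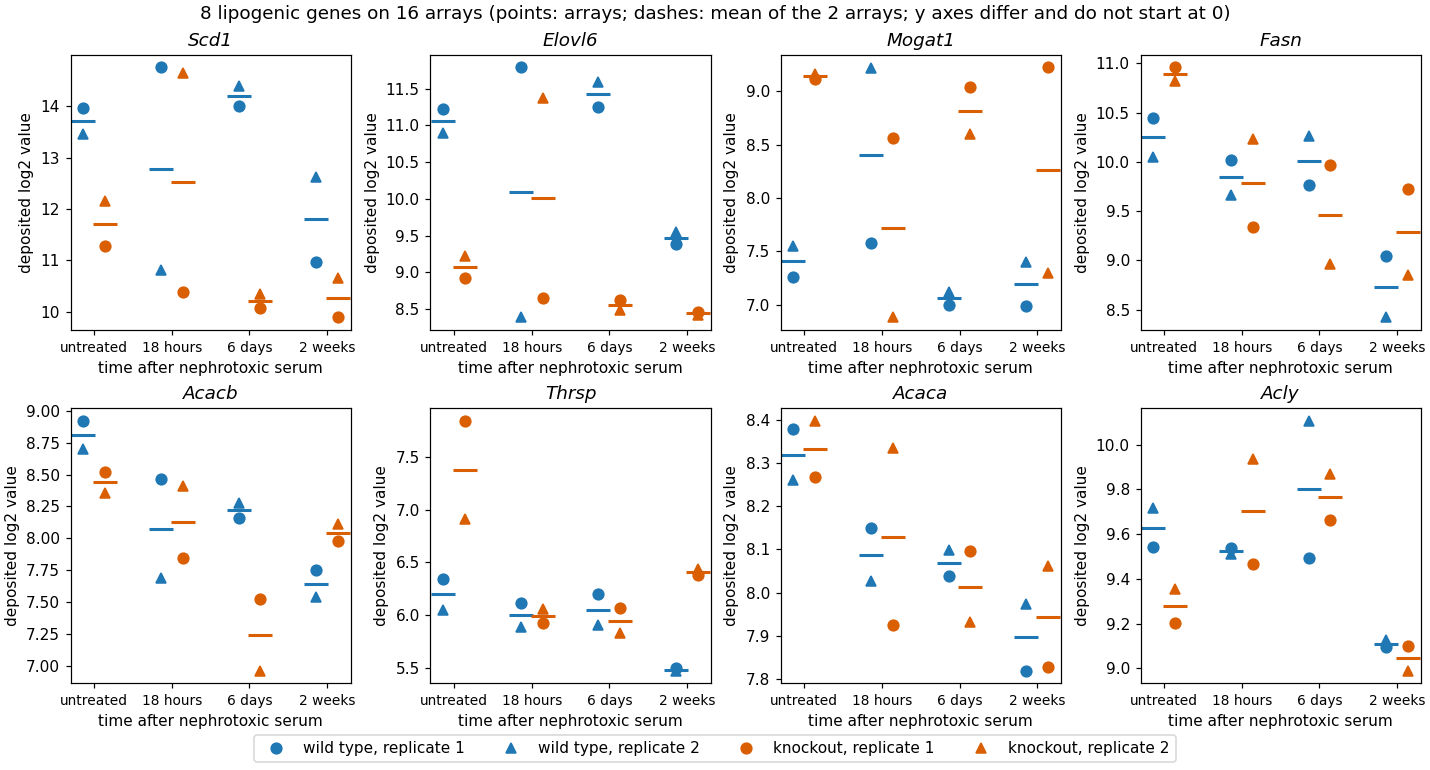
Deposited log2 value of the 8 measured genes (vertical axes, each with its own range) against time after nephrotoxic serum (horizontal axes). Circles are replicate 1 and triangles replicate 2, blue is wild type and orange knockout, and dashes are means of 2 arrays. At 18 hours the replicate 2 arrays change places for Scd1, Elovl6 and Mogat1, and outside 18 hours every Elovl6 value labelled knockout is below every value labelled wild type.

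Outside 18 hours, Scd1, the desaturase that makes oleate, and Elovl6, the elongase that makes its substrate, had higher means in wild type than in knockout. Mogat1 had lower ones. At 18 hours, with the crossed arrays, knockout minus wild type was -0.27 (SE 1.32) for Scd1 and -0.08 (SE 0.94) for Elovl6. For Mogat1 it was -0.68 (SE 0.67), so none of these 3 differences clearly exceeded its error. Outside 18 hours the genotypes did not overlap for Elovl6, while for Scd1 wild type 2 weeks replicate 1 lay below both untreated knockout arrays. Over all 16 arrays none of the 8 genes passed the genotype test averaged over the 4 times, and without the 18-hour arrays these 3 did.

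In untreated wild-type mice Scd1 read 13.96 and 13.47. It read 14.001 and 14.39 at 6 days and 10.97 and 12.62 at 2 weeks. In the knockout it read 11.28 and 12.15 untreated, 10.08 and 10.35 at 6 days and 9.89 and 10.66 at 2 weeks. The genotypes were apart at the first of these times and farthest apart at 6 days, and at 2 weeks the lower wild-type array lay just above the higher knockout array. At 18 hours wild type read 14.75 on replicate 1 and 10.82 on replicate 2, while knockout read 10.39 and 14.64. The second Scd1 probeset, whose values were not used in the tests, gave a Pearson r of 0.933 with the first over the 16 arrays. It read 8.80 and 8.88 in untreated wild type against 5.92 and 7.66 in untreated knockout, and 7.67 and 11.06 against 5.57 and 6.44 at 6 days. Both probesets thus placed the knockout below the wild type at these times.

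For Elovl6 the untreated wild-type arrays read 11.23 and 10.90 and the untreated knockout arrays 8.92 and 9.23. At 6 days wild type read 11.26 and 11.60 and knockout 8.63 and 8.49. At 2 weeks wild type read 9.39 and 9.55 and knockout 8.46 and 8.42. The genotypes did not overlap at any of these 3 times, and the distance was smallest at 2 weeks, when the wild-type level was itself lower. At 18 hours wild type read 11.79 and 8.39 and knockout 8.64 and 11.37, again crossed on replicate 2. Over the 12 arrays outside 18 hours, and over the 14 arrays, Elovl6 was the only one of the 8 genes whose knockout arrays all lay below its wild-type arrays. This held for 216 of 30142 genes (0.717%) over 12 arrays and for 155 (0.514%) over 14, and 179 (0.594%) and 146 (0.484%) had all knockout arrays above. Over all 16 arrays none of the 8 genes had separate genotypes, and a single gene of 30142 (0.00332%) lay lower in every knockout array.

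Mogat1 read 7.27 and 7.55 in untreated wild type, 7.0 and 7.12 at 6 days, and 6.99 and 7.40 at 2 weeks. Knockout arrays read 9.12 and 9.16 untreated, 9.04 and 8.60 at 6 days, and 9.22 and 7.30 at 2 weeks. The last value, from knockout 2 weeks replicate 2, lay among the wild-type values, and the other 5 knockout arrays outside 18 hours were above every wild-type array outside 18 hours. At 18 hours wild type read 7.58 and 9.22 and knockout 8.56 and 6.88, crossed on replicate 2 as for Scd1 and Elovl6.

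In the limma fit of all 16 arrays, the genotype average was -1.94 (SE 0.66) for Scd1, with an adjusted p of 0.311. For Elovl6 it was -1.49 (SE 0.47, adjusted p 0.291), and for Mogat1 0.97 (SE 0.33, adjusted p 0.316). None of the 8 genes was called at an adjusted p under 0.05, and neither was any other of 30142 genes (0%). Before adjustment 3514 genes (11.7%) had a p under 0.05, among them these 3 and Thrsp. Over 12 arrays, averaged over the 3 remaining times, 3 of the 8 genes were called where 449 of 30142 (1.49%) were. Scd1 was lower in knockout by -2.50 (SE 0.30, adjusted p 0.00595) and Elovl6 by -1.96 (SE 0.11, adjusted p 0.000108), and Mogat1 was higher by 1.52 (SE 0.28, adjusted p 0.0395). The 449 were 208 higher (0.69%) and 241 lower (0.8%). Over 14 arrays the same 3 were called among 519 genes (1.72%), 217 higher (0.72%) and 302 lower (1%), at -2.97 (SE 0.29, adjusted p 0.00161), -2.26 (SE 0.11, adjusted p 2.82e-05) and 1.38 (SE 0.27, adjusted p 0.0445). In the full set, leaving out knockout 2 weeks replicate 2 brought 1 call, Mogat1 at 1.21 (adjusted p 0.0361), 1 of 2196 genes (7.29%).

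The remaining 5 genes did not pass the genotype test over 16, 14 or 12 arrays. Over 16 arrays the averages were 0.15 for Fasn (SE 0.21), -0.22 for Acacb (SE 0.13) and 0.50 for Thrsp (SE 0.12, adjusted p 0.25). Acaca lay between -0.05 and 0.01 and Acly between -0.15 and -0.07 on these 3 sets of arrays. Thrsp had the smallest unadjusted p of the 8 genes over 16 arrays (0.00175), and over 12 arrays its average was 0.67 (SE 0.15, adjusted p 0.0759). Over 12 arrays the enzymes that build palmitate did not pass and the pair that lengthens and desaturates it did, but the difference between them was not itself tested.

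**Figure D2:**
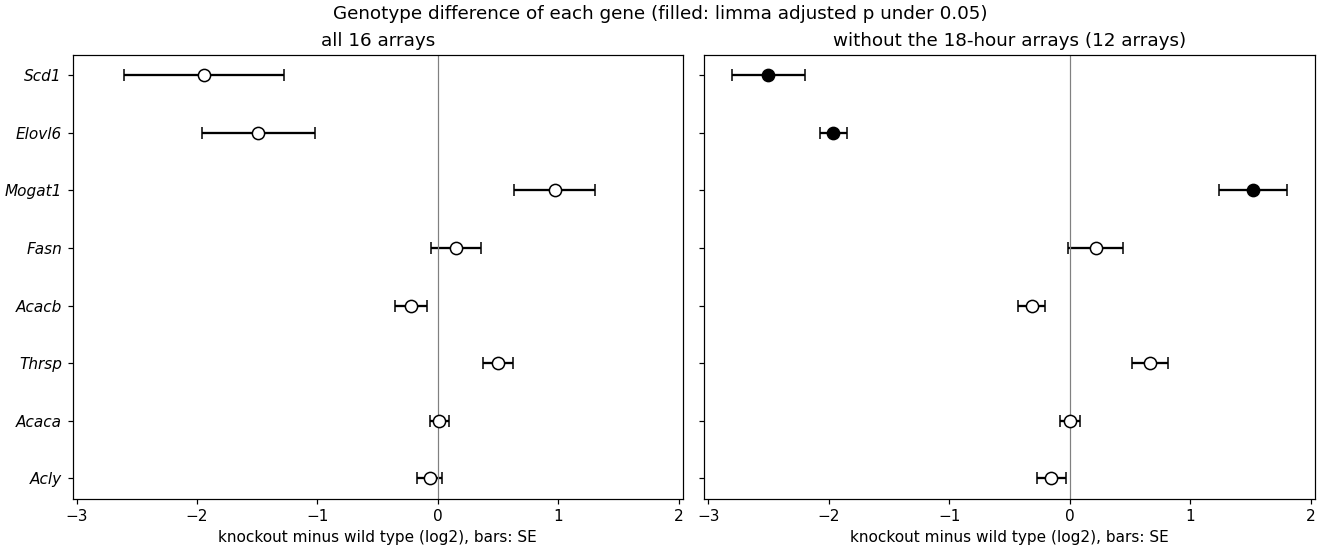
Knockout minus wild type in deposited log2 units (horizontal axis) for each gene, averaged over 4 times on all 16 arrays (left) and over 3 times on the 12 arrays outside 18 hours (right), with bars of 1 SE and filled points where the limma adjusted p was under 0.05. Scd1 and Elovl6 lie to the left of 0 and Mogat1 to the right in both panels, and they are filled in the right one alone.

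By time, no gene of the 8 was called in the fit of all 16 arrays. That fit called 0 of 30142 genes (0%) untreated, where 1564 (5.19%) had a p under 0.05 before adjustment, and 0 (0%) at 18 hours, where 707 (2.35%) did. It called 2 genes (0.00664%) at 6 days and 55 (0.182%) at 2 weeks. Without the 18-hour arrays, Elovl6 was called in untreated mice at -1.99 (SE 0.19, adjusted p 0.00615), 1 of 51 genes (0.169%). At 6 days Scd1 at -3.98 (SE 0.52, adjusted p 0.0229) and Elovl6 at -2.87 (SE 0.19, adjusted p 0.000618) were 2 of 71 (0.236%). At 2 weeks none of the 8 was among 11 called genes (0.0365%), and Elovl6 came nearest at -1.03 (SE 0.19, adjusted p 0.0957). Without knockout 2 weeks replicate 2, 5331 genes (17.7%) were called at 2 weeks, and none of the 8. When only the 4 arrays of a time entered the fit, Elovl6 (adjusted p 0.0374) and Mogat1 (1.73, adjusted p 0.0249) were called untreated, 2 of 124 genes (0.411%). At 6 days Scd1 (adjusted p 0.0106), Elovl6 (adjusted p 0.0124) and Mogat1 (1.76, adjusted p 0.0444) were called in that smaller fit, 3 of 113 genes (0.375%). At 2 weeks, and likewise at 18 hours, such a fit called none of the 8 and 0 of 30142 genes (0%). Over 14 arrays, where 1 array per genotype remained at 18 hours and was assumed to vary like the other groups, Elovl6 was called there too, at -3.15 (SE 0.27, adjusted p 0.00603), 1 of 12 genes (0.0398%).

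Sex-biased kidney genes moved with this split. Over 12 arrays all 13 male-biased genes measured were called higher in knockout, with a median difference of 6.06, and all 4 female-biased genes measured were called lower, with a median of -5.14, against a median over all genes of -0.02. Over all 16 arrays none of either list was called. The mean of the female-biased genes was 14.35 to 15.08 in wild-type arrays outside the 18-hour replicate 2 array and the 2-week arrays, which read 10.73 and 11.51. In the knockout arrays outside the 18-hour replicate 2 array it was 7.70 to 10.08. The part of these genes' shift in the Scd1, Elovl6 and Mogat1 values was not tested. Of the 8 fat cell markers measured, Lep, the leptin gene, stayed between 4.15 and 4.50, Plin1, the coat protein of the fat droplet in adipocytes, between 5.44 and 5.95, and Cidec between 5.04 and 5.597. Adipoq lay between 5.15 and 6.72, Retn between 5.64 and 6.60, Ucp1 between 4.72 and 7.34 and Lgals12 between 4.96 and 6.41, while Fabp4, which vascular endothelium also expresses, was brighter at 8.34 to 10.94. The mean of these 8 genes ran from 5.70 to 6.38 in wild type and from 5.76 to 6.36 in knockout. One of the 8, Lgals12, was called lower in knockout over 12 arrays at -0.92 (SE 0.07, adjusted p 0.000412). Over 12 arrays 1 of 16 proximal tubule markers was called higher (Acsm2, 2.98, adjusted p 0.0161). Of 10 podocyte markers 1 was called lower (Npnt, -1.40, adjusted p 0.0395), and of 12 macrophage markers 2 were (Tyrobp, -0.74, adjusted p 0.00523, and Lyz2, -1.18, adjusted p 0.0314).

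Other genes of lipid synthesis and storage were taken from 6 pathway lists. Over all 16 arrays none of the 70 measured genes of these lists was called, and over 12 arrays none was called either. Over 14 arrays 4 of the 70 (5.71%) were called, against 1.72% of all genes. Elovl2, an elongase of polyunsaturated chains, was lower in knockout by -1.87 (SE 0.32, adjusted p 0.0259), and Mgll, monoglyceride lipase, by -0.92 (SE 0.16, adjusted p 0.0308). Thra, a thyroid hormone receptor, was lower by -0.40 (SE 0.08, adjusted p 0.0403), and Mlxipl, which encodes the carbohydrate-responsive factor ChREBP, was higher by 0.71 (SE 0.14, adjusted p 0.0443). The elongation list as a whole, with 1 of 12 called there, had a median difference of -0.07, and the desaturation list, with 0 of 9, a median of -0.05, against -0.0011 over all genes. Among the genes not called on 16 arrays, the largest averages were 1.34 (SE 0.50) for Degs2, a sphingolipid desaturase and hydroxylase, -1.36 (SE 0.40) for Elovl2 and 1.09 (SE 0.37) for Me1, the cytosolic malic enzyme that supplies NADPH. In triglyceride synthesis 0 of 15 genes were called on any of these 3 sets, as in the acetyl-CoA and NADPH list with 0 of 8.

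After nephrotoxic serum, Fasn, the synthase of palmitate, and Acacb, the carboxylase of the mitochondrial surface, were lower at 2 weeks than untreated in wild type and passed the test over all 16 arrays. Acaca and Acly, which feed palmitate synthesis, did not pass. The serum comparisons within a genotype share its untreated arrays, so their values are set side by side and not treated as separate evidence.

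Fasn read 10.44 and 10.05 in untreated wild type, 10.02 and 9.66 at 18 hours, 9.76 and 10.26 at 6 days, and 9.04 and 8.42 at 2 weeks. In the knockout it read 10.96 and 10.82 untreated, 9.34 and 10.24 at 18 hours, 9.97 and 8.96 at 6 days, and 9.72 and 8.85 at 2 weeks. Untreated knockout arrays were the highest of all 16, and in both genotypes every 2-week array lay below every untreated array. The SD between the 2 knockout arrays was 0.71 at 6 days and 0.62 at 2 weeks, against 0.10 untreated.

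Acacb read 8.92 and 8.70 in untreated wild type, 8.46 and 7.69 at 18 hours, 8.16 and 8.28 at 6 days, and 7.75 and 7.54 at 2 weeks. Knockout read 8.52 and 8.36 untreated, 7.85 and 8.41 at 18 hours, 7.52 and 6.97 at 6 days, and 7.98 and 8.11 at 2 weeks. In wild type the 2-week mean was the lowest, with 18-hour replicate 2 between its arrays, and in the knockout both 6-day arrays were below all others. At 6 days both knockout arrays lay below both wild-type arrays, and at 2 weeks both lay above.

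Thrsp read 6.35 and 6.05 in untreated wild type, 6.11 and 5.89 at 18 hours, 6.20 and 5.902 at 6 days, and 5.49 and 5.47 at 2 weeks. Knockout read 7.84 and 6.91 untreated, 5.93 and 6.06 at 18 hours, 6.07 and 5.83 at 6 days, and 6.38 and 6.43 at 2 weeks. The untreated knockout arrays stood above all others, and the wild-type 2-week arrays below all others.

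Acaca and Acly varied least over the 8 groups, with group means spanning 0.44 and 0.76. Acaca stayed between 7.82 and 8.40 on all arrays, with untreated group means of 8.32 in wild type and 8.33 in knockout and 2-week means of 7.90 and 7.94. Each neighbouring pair of its 8 groups overlapped when ordered by mean. Acly stayed between 8.99 and 10.11. Its 2-week means, 9.11 (SD 0.02, n = 2) in wild type and 9.04 (SD 0.08, n = 2) in knockout, were the lowest of its 8 groups, and the 6-day means, 9.80 (SD 0.43, n = 2) and 9.77 (SD 0.15, n = 2), the highest.

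The order of the group means set the 8 genes apart further. For Scd1 it ran from wild type at 6 days (14.19, SD 0.27), untreated (13.71, SD 0.35) and 18 hours (12.79, SD 2.78) through knockout at 18 hours (12.52, SD 3.01), wild type at 2 weeks (11.80, SD 1.17) and untreated knockout (11.72, SD 0.61) to knockout at 2 weeks (10.28, SD 0.55) and 6 days (10.22, SD 0.19), with n = 2 for each. Along this order only the step from wild type at 6 days to untreated wild type and that from untreated knockout to knockout at 2 weeks were free of overlap between neighbours. For Elovl6 the same order held for the first 6 groups, with means from 11.43 down to 9.07, and the 6-day knockout mean (8.56, SD 0.10) was above the 2-week one (8.44, SD 0.03). For Mogat1 the top groups were untreated knockout (9.14, SD 0.03) and knockout at 6 days (8.82, SD 0.32), and the bottom ones were wild type at 2 weeks (7.19, SD 0.29) and 6 days (7.06, SD 0.09). For Fasn untreated knockout (10.89, SD 0.10) was highest and wild type at 2 weeks (8.73, SD 0.44) lowest, and only the first step of its order was free of overlap.

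At 2 weeks after serum, wild type differed from untreated wild type at 2424 of 30142 genes (8.04%), of which 1450 (4.81% of all genes) were higher and 974 (3.23%) lower. Fasn fell by 1.52 (SE 0.41, adjusted p 0.0487) and Acacb fell by 1.16 (SE 0.27, adjusted p 0.0303), both in limma over 16 arrays, so 2 of the 8 genes were called, both lower. The median of all genes was itself 0.13 higher at 2 weeks, and relative to it the differences were -1.65 and -1.29. Under quantile normalization that median was -0.01 and under median centring -0.09. The lower share of the called genes was 40.2% as deposited, 55.7% after quantile normalization and 83.5% after median centring. The other 6 genes also had negative differences, from -1.92 (SE 1.32) for Scd1 and -1.59 (SE 0.94) for Elovl6 to -0.21 (SE 0.67) for Mogat1, and did not pass. Over 14 and over 12 arrays, 859 genes (2.85%) were called. Elovl6 then passed at the same difference with a smaller error (SE 0.19, adjusted p 0.0114 in both), as did Acacb (adjusted p 0.0298 in both), and Fasn did not (adjusted p 0.0671 and 0.0673).

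These calls rested on few arrays. Acacb was called in 13 and Fasn in 5 of the 16 fits that each left out 1 array. Without wild type untreated replicate 1, wild type untreated replicate 2 or wild type 2 weeks replicate 2 none of the 8 genes was called, and 32, 0 and 231 genes were called in all. Fasn was called without wild type 2 weeks replicate 1, where it fell by 1.83 (adjusted p 0.0287), and without either replicate of knockout at 6 days (adjusted p 0.0465) or at 2 weeks (adjusted p 0.0247). Without either replicate of untreated knockout, Thrsp was called in its place, at -0.72 (adjusted p 0.0376 and 0.0377). Without any 1 of the 4 arrays of 18 hours, or of the wild-type arrays of 6 days, Acacb alone was called, with 1563 to 1714 genes in all.

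In wild type at 6 days none of the 8 genes was called, nor any of the 30142 (0%), and 2106 (6.99%) had a p under 0.05 before adjustment. The differences from untreated were 0.48 (SE 1.32) for Scd1, 0.36 (SE 0.94) for Elovl6, -0.24 (SE 0.41) for Fasn and -0.59 (SE 0.27) for Acacb. In the knockout at 6 days 4 genes (0.0133%) were called and none of the 8. The differences were -1.43 for Fasn (SE 0.41, adjusted p 0.349), -1.19 for Acacb (SE 0.27, adjusted p 0.215) and -1.43 for Thrsp (SE 0.24, adjusted p 0.132). Thrsp was called when 1 of 3 arrays was left out: knockout untreated replicate 2 (-1.90, adjusted p 0.0345, the 1 gene called) or either knockout 2-week replicate (-1.43, adjusted p 0.0358, 1 of 200 genes, 0.664%). With arrays weighted by their quality, 666 genes (2.21%) were called, all 3 of these among them, Fasn at an adjusted p of 0.048, Acacb at 0.0258 and Thrsp at 0.0202.

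In the knockout at 2 weeks 33 genes (0.109%) were called over 16 arrays and none of the 8, with Fasn at -1.60 (SE 0.41, adjusted p 0.234) and Thrsp at -0.97 (SE 0.24, adjusted p 0.223). The knockout 2-week replicates stood apart from each other: the proximal tubule mean was 15.73 on replicate 1 and 13.997 on replicate 2, against 15.92 and 16.15 in untreated knockout. The Fasn difference from untreated was -1.17 without replicate 2 and -2.04 without replicate 1, so its size depended on the array kept. Without that array and both 18-hour replicate 2 arrays, 1312 genes (4.35%) were called, among them Fasn (-2.04, SE 0.42, adjusted p 0.0383) and Mogat1 (-1.84, SE 0.24, adjusted p 0.0168), and replicate 2 alone then stood for the group.

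At 18 hours, averaged over both genotypes, none of the 8 genes was called, nor any of the 30142 (0%), and 1266 (4.2%) had a p under 0.05 before adjustment. Thrsp at -0.79 (SE 0.17, adjusted p 0.653), Fasn at -0.75 (SE 0.29) and Acacb at -0.52 (SE 0.19) were below untreated, and Scd1 and Elovl6 were at -0.06 (SE 0.93) and -0.02 (SE 0.67). This average holds both crossed arrays, 1 in each genotype. The F test of whether the 3 responses differed between genotypes called 0 genes (0%) and none of the 8 in limma over 16 arrays. At 2 weeks the difference of responses, knockout minus wild type, was 0.77 (SE 0.38, adjusted p 0.665) for Acacb and 0.96 (SE 1.34, adjusted p 0.839) for Elovl6, and at 6 days it was -1.28 (SE 0.34, adjusted p 1) for Thrsp, where 395 genes (1.31%) had a p under 0.05 before adjustment.

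Over 14 and over 12 arrays none of the 8 genes was called in wild type at 6 days or in knockout at 6 days, where 0 of 30142 genes (0%) were, or in knockout at 2 weeks, where 18 (0.0597%) were. Before adjustment 1836 genes (6.09%) in wild type and 1991 (6.61%) in knockout had a p under 0.05 at 6 days over 12 arrays. The F test then called 1 gene (0.00332%), none of the 8. Over 14 arrays the 18-hour average called 0 genes (0%), with 939 (3.12%) at a p under 0.05 before adjustment.

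**Figure D3:**
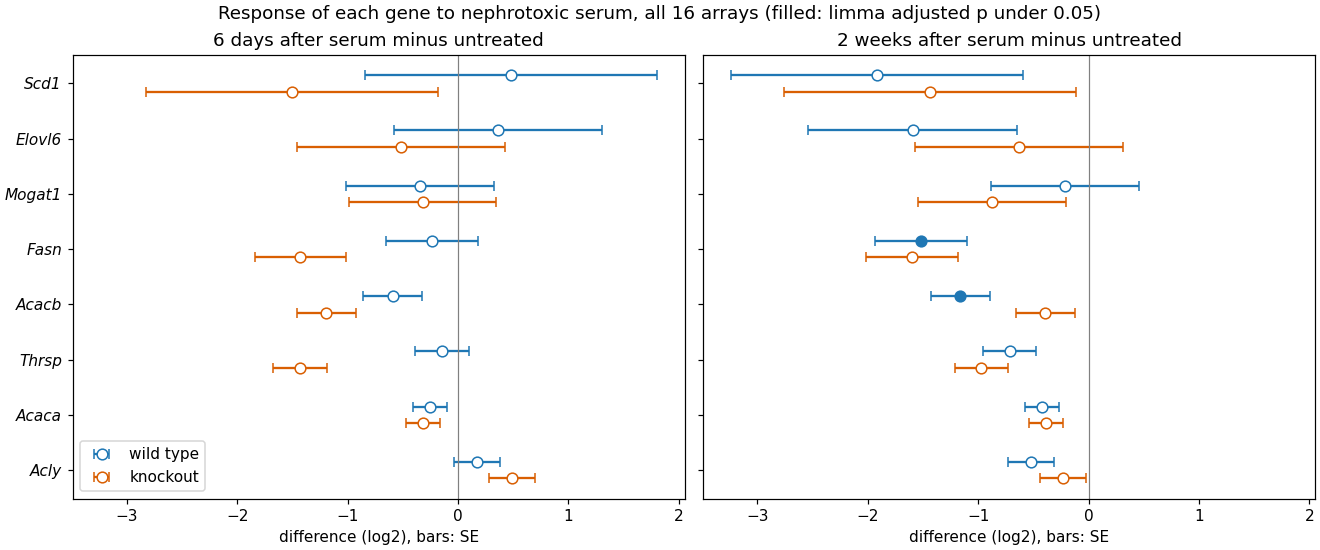
Difference from untreated in deposited log2 units (horizontal axes) for each gene at 6 days (left) and 2 weeks (right), with wild type in blue, knockout in orange, bars of 1 SE and filled points where the limma adjusted p was under 0.05 over 16 arrays. The filled points are Fasn and Acacb in wild type at 2 weeks, and the long bars belong to Scd1, Elovl6 and Mogat1, whose 18-hour arrays are crossed.

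Of the 70 genes of the pathway lists 14 (20%) were called in wild type at 2 weeks over 16 arrays, all lower, against 3.23% of all genes. Of 13 transcriptional regulators of lipogenesis 4 fell, with a median difference of -0.65 against 0.13 over all genes. They were Scap (-0.95, adjusted p 0.0273), which escorts SREBP to the Golgi, Nr1h3 (-0.65, adjusted p 0.0315), which encodes the liver X receptor alpha, Ppargc1b (-0.97, adjusted p 0.0376), a coactivator, and Thrb (-0.93, adjusted p 0.0322), a thyroid hormone receptor. Of 8 genes for acetyl-CoA and NADPH supply 2 fell, with a median of -1.16: Idh1, the cytosolic isocitrate dehydrogenase (-1.55, adjusted p 0.0344), and Mlycd, which breaks malonyl-CoA down again (-1.23, adjusted p 0.0482). Of 12 genes of elongation, which leave out Elovl6, 2 fell and the median was -0.42. These were Tecr (-1.32, adjusted p 0.0271), the reductase of the last step of the elongation cycle, and Hacd3 (-0.91, adjusted p 0.0415), a dehydratase of the same cycle.

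Of 9 genes of desaturation 2 fell, Fads3 (-1.17, adjusted p 0.049) and Fads6 (-0.76, adjusted p 0.0465), with a median of -0.42. Of 15 genes of triglyceride synthesis 3 fell, Agpat3 (-0.81, adjusted p 0.0424), Agpat5 (-0.71, adjusted p 0.0317) and Mogat2 (-0.85, adjusted p 0.0398), with a median of -0.64. The first pair are acyltransferases of phosphatidic acid synthesis, and Mogat2 has the same reaction as Mogat1. Of 13 genes of lipid droplets and lipolysis 1 fell, Pnpla2 (-1.06, adjusted p 0.0237), the lipase that starts triglyceride breakdown, with a median of -0.23. No gene of these 6 lists was called higher. Without the 18-hour arrays Fads6 (-0.76, adjusted p 0.0484) was the only one of the 70 called (1.43%, against 1.25% of all genes called lower).

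Proximal tubule markers moved with these genes. Of 16 such markers 8 fell in wild type at 2 weeks, with a median of -2.20, and their mean was 15.60 and 16.14 on the untreated arrays and 12.92 and 14.23 on the 2-week arrays. Of 10 distal nephron markers 1 fell (Slc4a1, -0.98, adjusted p 0.044), with a median of -1.12, and of 10 endothelial markers 1 fell (Plvap, -1.54, adjusted p 0.0353), although their median was 1.05. Of 12 macrophage markers 8 rose, with a median of 0.78, and no podocyte marker of 10 was called, at a median of 0.80. Over 12 arrays 3 proximal tubule markers were called lower and 7 macrophage markers higher. The share of the fall in Fasn, Acacb and the pathway genes that goes with the tubule markers was not tested.

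**Figure D4:**
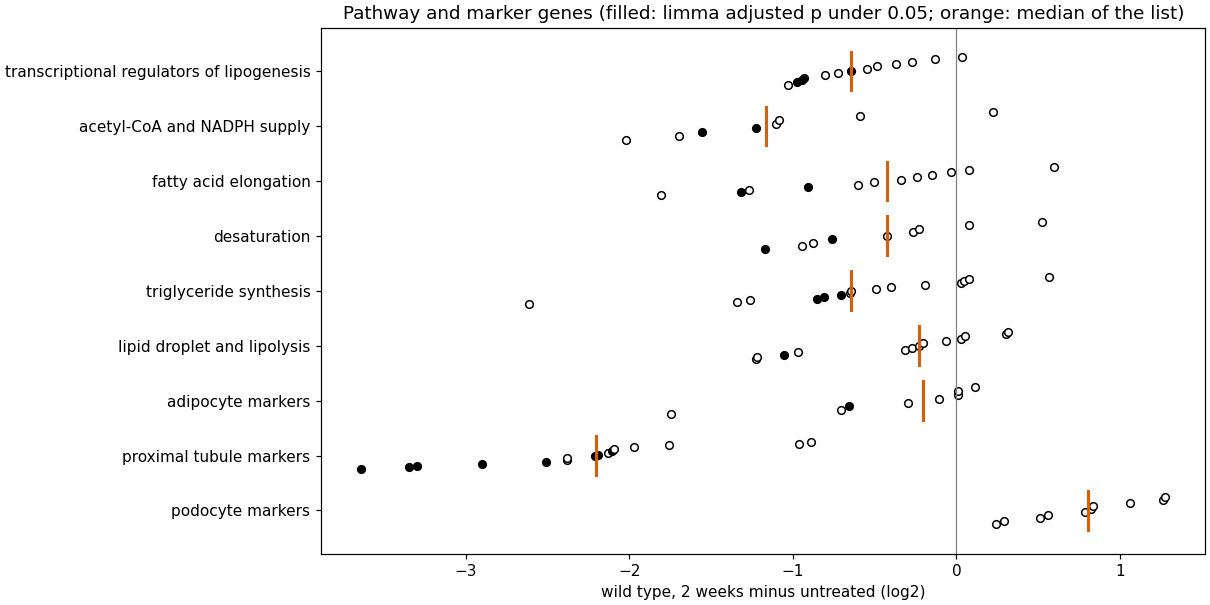
Wild type at 2 weeks minus untreated in deposited log2 units (horizontal axis) for each gene of 6 pathway lists and 3 marker lists, 1 point per gene, filled where the limma adjusted p was under 0.05 over 16 arrays, with the list median in orange. The medians of the pathway lists lie between -1.16 and -0.23, between those of proximal tubule markers (-2.20) and podocyte markers (0.80).

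Across the 16 arrays Scd1 and Elovl6 ran together, with a Pearson r of 0.97. These points share groups, crossed arrays and normalization, and the coefficients are descriptions only. Fasn was most like Acaca (0.758) among the 8 genes and had an r of 0.698 with Acacb and 0.697 with Thrsp, against 0.368 with Scd1. Mogat1 ran against Scd1 (-0.683) and Elovl6 (-0.712). Acly had no coefficient above 0.511 with the others, that value being with Elovl6. Over the measured genes, with some classes of symbol left out as given below, those most like Scd1 were Gsta4 (0.973), a glutathione transferase, Elovl6 itself and Flvcr2 (0.951). Those most like Elovl6 were Slc17a2 (0.98) and Abcc3 (0.971), both transporters, and Scd1. Mogat1 was most like Wdr81 (0.982), Hsd17b11 (0.981), an enzyme found on lipid droplets, and Chst7 (0.972), a sulphotransferase. Acacb was most like Wnk4 (0.978), a kinase of the distal nephron, Pdk1 (0.973), a kinase of pyruvate dehydrogenase, and Rap1gap (0.961). Fasn was most like Tyw3 (0.925), Epha1 (0.913) and Cyp4f13 (0.912), Acly like Naca (0.911), Tgm2 (0.897) and Ctbp1 (0.897), Thrsp like Kcne3 (0.85), Mpp4 (0.808) and Narf (0.794), and Acaca like Drosha (0.83), Ep300 (0.817) and Cys1 (0.813).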

How the data were processed

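Deposited log2 values of 72688 probesets on 16 arrays were used as the authors gave them. The submitters' processing notes name Transcriptome Analysis Console and Affymetrix Expression Console. The summarisation, annotation build and scale are not stated there or in the labels. RNA (10 ng) was amplified with a WT Pico kit, per the labels' protocols. The 30604 probesets with exactly 1 symbol were kept, and the brightest was taken per gene, which left 30142 genes.

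A linear model with 8 group means was fitted per gene with limma 3.58.1 in R 4.3.3 (8 residual degrees of freedom, intensity trend). Benjamini-Hochberg adjustment ran over the 30142 genes of each contrast, and calls were made at an adjusted p under 0.05. The number 1 or 2 of a replicate was not used to pair the mice in this model. The labels name separate mice.

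The genes described, the lists and the settings were chosen with earlier results of these data known. All 10 genes were taken. Pathway genes were named where called or from the 4 of their list with the largest genotype average. Called genes of the marker and sex-biased lists were in part given as counts only. The 3 genes most like each by Pearson r over 16 arrays were named. That search left out predicted transcripts, clone and accession symbols, pseudogenes, microRNAs, small nucleolar RNAs, olfactory and vomeronasal receptors, and antigen receptor segments. It also left out every symbol that starts with Rn. On simulated data of 30142 genes, genotype changes were added to randomly chosen genes, with independent noise and no crossed arrays. For the genotype average, added changes of 1 log2 unit were recovered in 98.5%. Changes of 2 or 4 were recovered in 100%, with 6 false calls. On the 16 deposited arrays the same comparison called 0 of 30142 genes. Scd1 was among those not called, with a mean of 13.12 in wild type and 11.18 in knockout. The simulated recovery therefore does not tell how often a change of that size is called on the deposited arrays. Alternatives changed the scaling, probeset, filter, variance moderation, array weights and arrays.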

Additional observations from a re-analysis of the deposited data

How the results depend on the processing

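The genotype average called none of the 8 genes over 16 arrays and under 9 alternatives that kept all arrays. Over 12 arrays it called 3 of them, among 449 genes (1.49%). The cause of this change was not tested. Over 14 and 13 arrays the averages were -2.97 and -2.87 for Scd1, -2.26 on both for Elovl6, and 1.38 and 1.14 for Mogat1. Over these 12 alternatives the adjusted p ran from 0.00141 to 0.425 for Scd1, from 2.43e-05 to 0.405 for Elovl6 and from 0.00123 to 0.378 for Mogat1. Leaving out 1 array at a time gave 0 to 1. For untreated mice the count was 1 of 51 called genes (0.169% of all) over 12 arrays. With only the groups compared it was 2 of 124 (0.411%). At 6 days it was 2 of 71 (0.236%) over 12 arrays and 3 of 113 (0.375%) with only the groups compared. At 18 hours 1 array per genotype remained over 14 and over 13 arrays, and Elovl6 differed by -3.15 in both.

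For wild type at 2 weeks the count was 2 of 2424 called genes as deposited and 1 of 1097 after quantile normalization. After median centring it was 4 of 3266 (Fasn, Acacb, Acaca and Thrsp), and with array weights 0 of 277 (0.919% of all genes). The count thus moved together with the number of genes called in all. Over 13 alternatives the adjusted p ran from 0.0253 to 0.165 for Fasn and from 0.00833 to 0.14 for Acacb. Leaving out 1 array gave 0 to 2. For the knockout the count at 6 days was 3 with array weights and 0 to 1 without 1 array, and at 2 weeks it was 2 over 13 arrays and 0 to 1 without 1 array. A fit of only the groups compared is the main one for the genotype average and the F test, and 12 arrays give no 18-hour value.

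Same-numbered mice did not deviate together: over 28 pairs of groups the correlation of replicate differences ran from -0.679 to 0.593. With replicate number as a block, wild type at 2 weeks gave 1 of the 8 genes in place of 2 and 2028 genes in place of 2424. No sign of a called value reversed under any alternative. Of the single-gene values, 2164 kept their call and side, 46 passed only under the alternative, 21 passed only in the main setting, and 65 changed sign with no call on either side.

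Limits are the 2 arrays per group, the crossed 18-hour arrays, an unstated scale, tubule in the extracts, and no measurement of Scd2 and Srebf1.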
